A study of Homo sapiens with 7 samples.

Results

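The C/D box snoRNAs were taken as the genes whose symbol in the deposited tables starts with SNORD, which gave 283 of 60662 genes. They were followed in 7 total RNA libraries of a pair of human T-cell acute lymphoblastic leukaemia lines, both established from leukaemic T-lineage cells. In PF-382, 3 libraries carried a STAG2 knockout (KO), for which a complex of Cas9 protein and guide RNA had been brought into the cells, against 2 untreated wild-type libraries (WT). MOLT-14 cells had been given STAG2 by transduction in 1 library (STAG2), against an empty vector in the other (EV). STAG2 encodes a subunit of cohesin, the ring complex that holds sister chromatids together and shapes chromatin loops. The labels give each PF-382 library a code of its own and do not say whether the libraries are separate clones or cultures, so p values measure the spread between these libraries, which may be technical.

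C/D box snoRNAs are short nuclear RNAs named for the conserved boxes C and D near their ends. Most guide the methylation of the ribose at chosen bases of ribosomal or spliceosomal RNA by pairing with the target beside box D, with fibrillarin as the enzyme. A few, among them U3, U8, U13, U14 and U22, act in the cutting or folding of the ribosomal RNA precursor in the nucleolus. Most human members are cut from introns of host genes, many of which encode ribosomal or translation proteins, while the U3 and U13 genes have promoters of their own.

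Of the 283 members, 282 carried the biotype snoRNA in the annotation and 1, SNORD138, the biotype microRNA. A count above 0 was listed for 99 members in at least 1 library, and 2 of these rounded to 0 everywhere, leaving 97. No count was listed for 184 members. At least 3 counts in a library were reached by 57 members, and at least 10 counts by 22. After the filter on low counts 19 members were tested in PF-382. A further 78 were counted but not tested, so the 19 are not a sample of the whole family. A count of 0 in PF-382 allows up to 3 counts in a library, a level of 0.0321 to 0.0920 CPM (counts per 1000000 counts of the library, TMM-scaled).

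The label fitted the sequences. On the transcript strand the letters TGATGA, which are part of box C, stood in 76.7% of the 283 annotated SNORD sequences. CTGA, box D, stood in the last 20 bases of 96.5%. Both were present in 74.9% of SNORD sequences and in 0 of 147 sequences of SNORA genes, the H/ACA box family, where TGATGA stood in 3.40% and a late CTGA in 8.84%. A match of letters is a description and not a mapped box.

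The sequences below are those of some of the members with the most counts. U3 is shown first because its copies differ at single bases, and those positions are in capitals. SNORD3B-1 and SNORD3B-2 had the same 217 bases, printed once. All are from GENCODE 29 (GRCh38), 5′ to 3′.
SNORD3A: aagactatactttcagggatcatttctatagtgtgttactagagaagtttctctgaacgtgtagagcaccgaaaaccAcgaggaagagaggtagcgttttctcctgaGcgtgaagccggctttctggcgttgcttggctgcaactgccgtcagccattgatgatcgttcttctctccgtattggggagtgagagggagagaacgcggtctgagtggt
SNORD3B-1: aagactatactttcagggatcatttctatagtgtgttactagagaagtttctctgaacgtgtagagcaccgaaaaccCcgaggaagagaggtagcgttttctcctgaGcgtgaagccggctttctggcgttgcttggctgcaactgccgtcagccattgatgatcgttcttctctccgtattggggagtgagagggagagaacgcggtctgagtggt
SNORD3C: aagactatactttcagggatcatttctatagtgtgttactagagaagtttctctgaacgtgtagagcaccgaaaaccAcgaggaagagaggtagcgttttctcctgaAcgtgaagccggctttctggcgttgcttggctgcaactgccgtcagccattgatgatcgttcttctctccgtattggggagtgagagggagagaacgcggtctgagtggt

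Counting from 1 at the 5′ end of SNORD3A, the SNORD3B genes carried A78C and SNORD3C carried G108A, so that each shared 216 of 217 bases with SNORD3A. The SNORD3A transcript lies on the plus strand at chr17:19188016-19188232, SNORD3B-1 on the plus strand at chr17:19061912-19062128 and SNORD3B-2 on the minus strand at chr17:19063920-19064136. Within the 217 U3 bases, C at position 78 fits both SNORD3B genes and A fits SNORD3A and SNORD3C. G at position 108 fits all but SNORD3C. A read of these bases that spans neither position fits every copy shown, and the U3 genes had fractional expected counts. The annotated genes are longer, at chr17:19188016-19188714 for SNORD3A, chr17:19061912-19062669 for SNORD3B-1 and chr17:19063346-19064136 for SNORD3B-2. A count for such a gene need not come from the 217 bases.

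Of the guide snoRNAs with the most counts, 3 are shown next, with TGATGA and the last CTGA in capitals, as examples of the guides by their counts.
SNORD17: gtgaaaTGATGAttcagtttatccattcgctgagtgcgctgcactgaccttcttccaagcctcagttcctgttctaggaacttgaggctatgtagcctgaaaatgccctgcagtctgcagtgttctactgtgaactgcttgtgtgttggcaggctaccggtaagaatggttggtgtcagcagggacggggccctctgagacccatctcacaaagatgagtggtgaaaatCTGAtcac
SNORD10: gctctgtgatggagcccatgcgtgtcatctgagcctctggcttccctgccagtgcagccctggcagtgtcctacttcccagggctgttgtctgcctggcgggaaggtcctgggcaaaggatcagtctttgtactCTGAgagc
SNORD94: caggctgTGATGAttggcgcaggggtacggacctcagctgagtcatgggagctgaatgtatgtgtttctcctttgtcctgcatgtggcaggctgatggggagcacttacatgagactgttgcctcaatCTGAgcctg

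SNORD17 lies on the minus strand at chr20:17962710-17962946 within an intron of SNX5. SNORD94 lies on the plus strand at chr2:86135870-86136006 within an intron of PTCD3. SNORD10, on the plus strand at chr17:7576811-7576952, falls inside an annotated exon of its host EIF4A1, and its sequence holds no TGATGA.

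Library totals were 65262298, 93970572 and 81304941 counts in KO and 32609475 and 33145482 in WT, and 45013448 in MOLT-14 STAG2 and 38678356 in MOLT-14 EV. STAG2 itself stood at 239, 166 and 180 CPM in KO, against 315 and 537 CPM in WT, and at 161 CPM in MOLT-14 STAG2, against 1.38 CPM in MOLT-14 EV. Of 8 T-lineage markers, 7 reached 1 CPM in every PF-382 library and 6 in every library, and 8 of 10 markers of other lineages stayed under 1 CPM everywhere. CD2 had 0.579, 0.588 and 1.31 CPM in KO, against 0.589 and 1.63 CPM in WT. PTCRA had 0.210 CPM in MOLT-14 STAG2, against 0.0984 CPM in MOLT-14 EV. Of the other lineages, COL1A1 ran from 0.858 to 2.68 CPM over all libraries and CD79A from 3.57 to 48.4 CPM. CD79A also set the WT libraries apart, at 35.2 CPM in the first and 6.56 CPM in the second. The first wild-type library stood apart in its small RNA genes (snoRNA, snRNA, scaRNA, ribozyme and miscellaneous RNA genes), which took 11.96%, 13.98% and 13.7% of counts in KO, against 21.0% and 14.9% in WT. They took 9.27% in MOLT-14 STAG2, against 4.87% in MOLT-14 EV. The main results are given with and without the first wild-type library. In bulk RNA, fewer cells expressing a gene and less RNA per cell cannot be told apart.

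The share of all gene counts that fell on C/D box snoRNAs was 0.317%, 0.375% and 0.396% in the 3 KO libraries, against 1.04% and 0.355% in the 2 WT libraries. The first wild-type library was the highest, and the second lay between the KO libraries, so the groups overlapped. The mean share was 0.363% ± 0.041 in KO (SD, n = 3) and 0.699% ± 0.486 in WT (SD, n = 2). The difference of -0.336 percentage points gave p = 0.3 in an exact two-sided permutation test over 10 arrangements, where 0.1 is the smallest p possible. Without the first wild-type library the difference was +0.00776 percentage points, the opposite sign.

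MOLT-14 had a far lower share, 0.0730% in STAG2 (95% Wilson interval 0.0723 to 0.0738), against 0.0430% in EV (0.0423 to 0.0436). The share was higher in the STAG2 library beyond counting error. With 1 library each there was no replicate check, and the intervals hold no more than counting error, because reads were not tied to single molecules. Relative to all small RNA genes the order turned round, with 0.788% in MOLT-14 STAG2, against 0.882% in MOLT-14 EV. In PF-382 the same ratio was 2.65%, 2.68% and 2.89% in KO, against 4.97% and 2.39% in WT.

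Nearly all of these counts were U3. The U3 genes made up 97.4%, 97.7% and 97.9% of C/D box counts in KO, 95.1% and 96.1% in WT, 86.1% in MOLT-14 STAG2 and 84.6% in MOLT-14 EV. Without U3, the remaining members took 0.00828%, 0.00865% and 0.00837% of all counts in KO, against 0.0516% and 0.0138% in WT. On this measure both WT libraries lay above all 3 KO libraries, and the first wild-type library was again the highest. With U8 left out as well, the mean was 0.00838% ± 0.000187 in KO (SD, n = 3) and 0.0325% ± 0.0265 in WT (SD, n = 2), with p = 0.1 in the exact test, its smallest value. In MOLT-14 the share without U3 was 0.0102% in STAG2, against 0.00662% in EV.

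**Figure D1:**
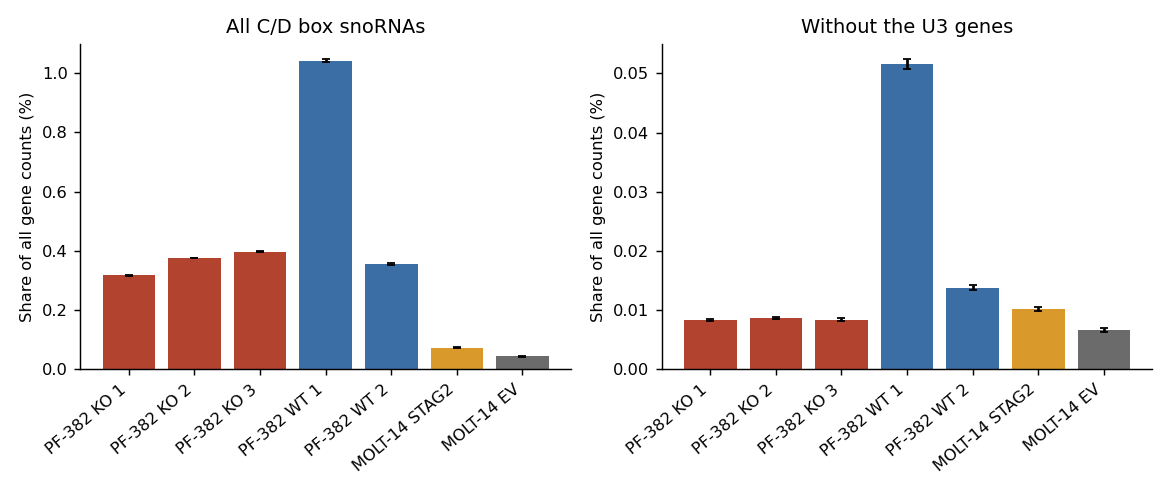
Share of all gene counts (%) on C/D box snoRNAs in each library, for all members (left) and without the U3 genes (right), with 95% Wilson intervals for counting error. The first wild-type library is the highest at 1.04% and 0.0516%, and without U3 the second wild-type library, at 0.0138%, also lies above the 3 knockout libraries.

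More members were counted in the first wild-type library than in the others. A count was listed for 56, 54 and 43 members in KO, against 78 and 60 in WT, and for 41 in MOLT-14 STAG2, against 56 in MOLT-14 EV. Depth differed, so the number expected after thinning to the depth of the shallowest library was computed. It was 44.5, 35.1 and 31.3 members in KO, against 78.0 and 59.7 in WT, and 37.4 in MOLT-14 STAG2, against 53.1 in MOLT-14 EV. At equal depth both WT libraries still listed more members than any KO library, and MOLT-14 EV more than MOLT-14 STAG2.

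Among the 19 members tested in PF-382, 12 were lower in KO, 2 were higher and 5 did not pass the test (edgeR quasi-likelihood, Benjamini-Hochberg adjusted over 17442 genes, threshold 0.05). Over all genes tested 30.4% were called, 14.6% lower and 15.8% higher. Values of all KO libraries lay below those of both WT libraries for 15 of the 19 members, against 29.4% of all genes, and above them for 2, against 30.4% of all genes. The median log2 change was -2.11 over the 19 members and -0.02 over all genes. The filter asked for 0.153 CPM in 2 libraries, and 12 of the 19 members met it in KO libraries alone. The other 7 (SNORD8, SNORD14C, SNORD22, SNORD33, SNORD46, SNORD110 and SNORD116-15) met it only with a WT library counted, so a lower value in KO was favoured by the filter, and the counts and median that include them are descriptions. Of the 12, 7 were lower and 2 higher, and their median was -1.72. The 2 higher were SNORD3B-1 and SNORD3B-2, which have the same U3 bases and are not independent.

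Without the first wild-type library, 4 of 18 members tested were lower (SNORD10, SNORD15B, SNORD33 and SNORD97), the same 2 were higher, and the median was -0.85. The 6 calls were 33.3% of the members, against 34.7% of all genes called in that fit, so the share called was at the background. Without the second wild-type library 16 of 24 members tested were lower and 2 higher, with 34.1% of all genes called. With KO replicate 1, 2 or 3 left out, 7 of 18, 4 of 16 and 4 of 16 members were lower and 1 was higher each time, with 15.6%, 14.1% and 13.7% of all genes called. SNORD10, SNORD97 and SNORD3B-2 were called in each of these 5 fits.

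The direction was shared by other small nucleolar RNAs. Of 56 H/ACA snoRNAs (SNORA) tested, 50 were lower in KO, against 14.6% of all genes, and 0 were higher, against 15.8% of all genes. At an unadjusted p under 0.05, 0 were higher by edgeR or DESeq2. Of 13 SCARNA genes, whose RNAs guide modification in Cajal bodies, 9 were lower and 0 higher, likewise with 0 at an unadjusted p under 0.05 by both tools. Without the first wild-type library the median log2 change was -1.32 over the 56 SNORA and -0.62 over the 13 SCARNA genes, against 0.03 over all genes. The small RNA share of the libraries moved with these counts, and its part in them was not tested.

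**Figure D2:**
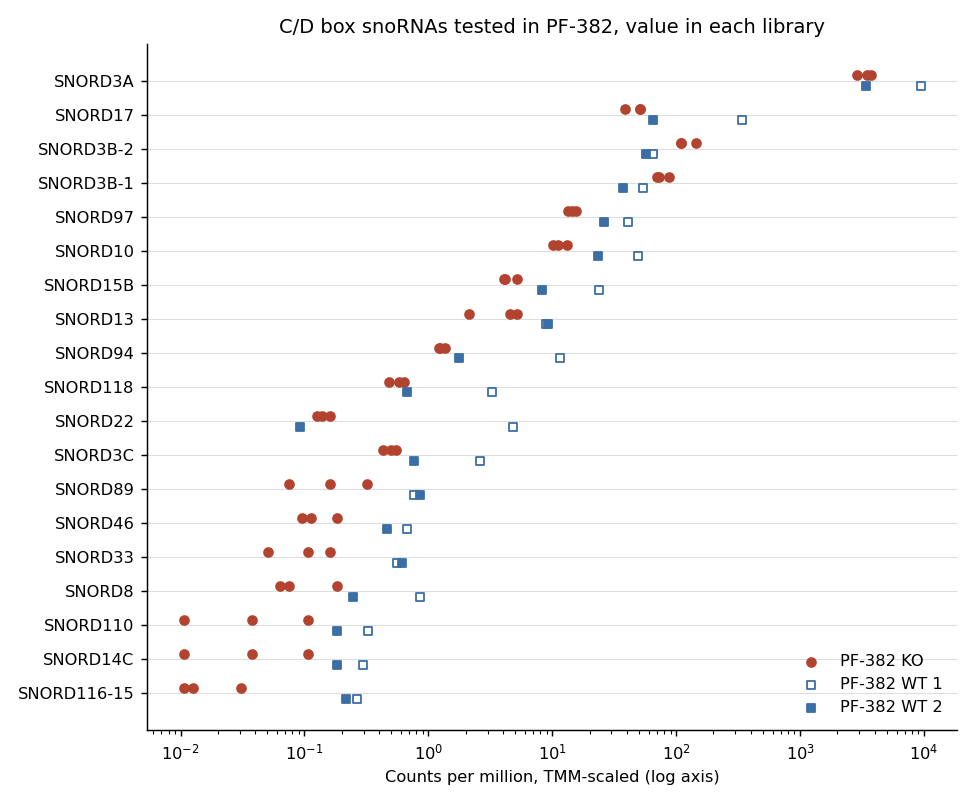
CPM on a log axis for the 19 C/D box snoRNAs tested in PF-382, ordered by their mean. Circles are the 3 knockout libraries, the open square the first and the filled square the second wild-type library; in 15 rows all circles lie left of both squares, and in the rows of SNORD3B-1 and SNORD3B-2 they lie right of both.

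SNORD3A, the main U3 gene, was by far the most counted member, with 2894, 3499 and 3745 CPM in KO, against 9394 and 3375 CPM in WT. The second wild-type library lay within the KO range and only the first lay above it. The log2 change was -0.92 (SE 0.40, edgeR adjusted p = 0.124), and SNORD3A was called lower by DESeq2 (adjusted p = 0.0397). The change was 0.01 without the first wild-type library and -1.45 without the second. In MOLT-14 the level was 249 CPM in STAG2, against 184 CPM in EV.

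The SNORD3B genes, whose annotated U3 is 1 base from that of SNORD3A, went the other way. The counts are those of the whole annotated genes, which extend beyond the U3 bases. SNORD3B-2 had 109, 110 and 144 CPM in KO, against 64.4 and 57.4 CPM in WT. SNORD3B-1 had 70.2, 72.6 and 87.5 CPM in KO, against 54.2 and 37.5 CPM in WT. For both genes every KO library was above every WT library. Their 217 U3 bases are the same and their counts are fractional. The split of such reads between the 2 genes is that of the authors' counting, so they are not 2 independent members. SNORD3B-2 rose by 0.99 on the log2 scale (SE 0.17, edgeR adjusted p = 0.00855), about 1.99-fold. SNORD3B-1 rose by 0.74 (SE 0.19, edgeR adjusted p = 0.0306), a call lost when any KO library was left out and under upper-quartile scaling, where its change was 0.57.

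As a share of all U3 counts, the SNORD3B genes held 5.82%, 4.95% and 5.83% in KO, against 1.25% and 2.73% in WT. They held 62.2% in MOLT-14 STAG2 (95% Wilson interval 61.7 to 62.8), against 46.6% in MOLT-14 EV (45.8 to 47.4). The share was higher in the KO libraries, and in MOLT-14 it was higher in the library that received STAG2. The lines differed more from each other than the groups within either line. How the authors' counting divides reads among the copies was not tested.

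**Figure D3:**
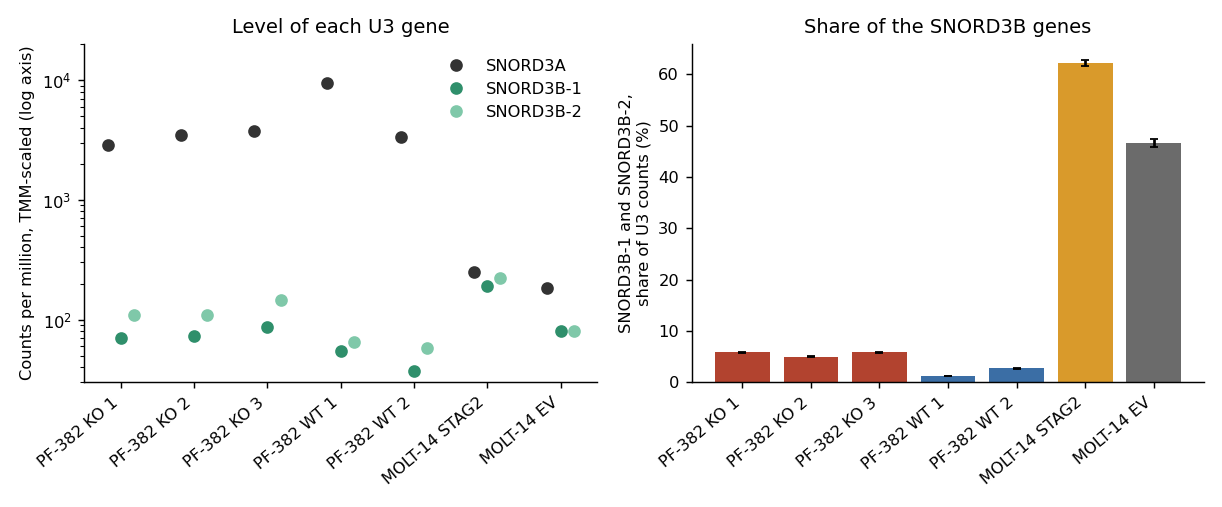
Level of SNORD3A, SNORD3B-1 and SNORD3B-2 in CPM on a log axis (left) and the share of U3 counts on the SNORD3B genes in % (right), with 95% Wilson intervals for counting error. SNORD3A is at 9394 CPM in the first wild-type library and the SNORD3B share is 4.95% to 5.83% in knockout, 1.25% and 2.73% in wild type, 62.2% in MOLT-14 STAG2 and 46.6% in MOLT-14 EV.

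SNORD3C had 0.549, 0.502 and 0.429 CPM in KO, against 2.62 and 0.767 CPM in WT, from 25 to 89 counts a library. It fell by 1.78 on the log2 scale (SE 0.52, edgeR adjusted p = 0.0434), and without the first wild-type library the change was -0.62 (adjusted p = 0.272). SNORD3D, listed more than once in the tables, had no whole count in any library.

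The other members with a role in ribosomal RNA processing had few counts. SNORD13, U13, which guides acetylation of the small-subunit ribosomal RNA, had 5.17, 4.60 and 2.12 CPM in KO, against 8.98 and 9.17 CPM in WT. Both WT libraries were above all KO libraries, but the log2 change of -1.20 did not pass (SE 0.38, edgeR adjusted p = 0.0539). It passed under upper-quartile scaling (adjusted p = 0.0368), TMM on protein-coding genes (0.0445), no filter (0.0384), the 1 CPM filter (0.0441) and DESeq2 (0.0100), and did not in the other alternatives, with p from 0.0516 to 0.589. SNORD13 is annotated within TTI2 on the opposite strand, and the strand setting of the counting is not given in the sources used here, so reads of the 2 genes may not be separable. Its level was 6.35 CPM in MOLT-14 STAG2, against 5.46 CPM in MOLT-14 EV.

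SNORD118, U8, which is needed for processing of the large-subunit ribosomal RNA, had 0.579, 0.641 and 0.479 CPM in KO, against 3.27 and 0.675 CPM in WT. The second wild-type library was close to the KO libraries, and the log2 change of -1.80 (SE 0.61) did not pass the test (edgeR adjusted p = 0.0670). It passed by DESeq2 (adjusted p = 0.0323) and by edgeR with no filter (adjusted p = 0.0439). The change was -0.24 without the first wild-type library and -2.50 without the second. SNORD22, U22, which acts in small-subunit processing in the frog Xenopus, had 9, 15 and 10 counts in KO, against 163 and 3 counts in WT. The first wild-type library held 52.1 times the CPM of the second, which lay below all KO libraries. SNORD22 met the filter only with a WT library counted, which favoured a lower value in KO. The fitted change was -4.09 (SE 1.21, edgeR adjusted p = 0.0448), and it was +0.62 without the first wild-type library (adjusted p = 0.584).

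Of the U14 genes, which serve small-subunit processing in yeast, SNORD14C had 7, 1 and 3 counts in KO, against 10 and 6 counts in WT, and did not pass (log2 change -2.26, SE 0.85, edgeR adjusted p = 0.0862). SNORD14B had 0, 3 and 2 counts in KO and 5 and 3 in WT. SNORD14A and SNORD14D had at most 2 counts in a library. SNORD14E had no whole count. SNORD14C met the filter only with WT libraries counted, so a lower value in KO was favoured. SNORD14C was called lower without KO replicate 1 (log2 change -3.25, adjusted p = 0.0490), and its adjusted p was 0.0704 to 0.442 under the other alternatives.

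SNORD17, the longest member tested at 237 bases and a guide of the large-subunit ribosomal RNA, was the guide with the most counts. It had 38.9, 51.2 and 51.2 CPM in KO, against 341 and 65.4 CPM in WT. The groups did not overlap, and the 2 WT libraries differed from each other by 5.21 times. It fell by 2.11 on the log2 scale (SE 0.59, edgeR adjusted p = 0.0382). In fits that left out 1 library the change ranged from -2.83 to -0.46, and 4 of the 5 fits lost the call.

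SNORD97, reported to guide methylation of the elongator methionine tRNA, had 15.6, 13.4 and 14.5 CPM in KO, against 40.5 and 26.0 CPM in WT. SNORD10, a guide of U6 and of small-subunit ribosomal RNA, had 13.2, 10.2 and 11.1 CPM in KO, against 49.2 and 23.3 CPM in WT. Both had narrow KO values that lay below both WT values. SNORD97 fell by 1.20 (SE 0.20, edgeR adjusted p = 0.00841) and SNORD10 by 1.66 (SE 0.30, edgeR adjusted p = 0.0110) on the log2 scale. Without the first wild-type library the changes were the smallest of the leave-one-out fits for both genes, -0.83 for SNORD97 and -1.01 for SNORD10.

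SNORD15B, a guide of the large-subunit ribosomal RNA, had 5.21, 4.15 and 4.07 CPM in KO, against 23.6 and 8.22 CPM in WT. SNORD94, a guide of the spliceosomal U6 RNA, had 1.36, 1.21 and 1.25 CPM in KO, against 11.6 and 1.78 CPM in WT. The groups did not overlap for either gene, and for SNORD94 the 2 WT libraries differed by 6.50 times. SNORD15B fell by 1.83 (SE 0.42, edgeR adjusted p = 0.0211) and SNORD94 by 2.39 (SE 0.67, edgeR adjusted p = 0.0393). SNORD94 changed by -0.47 when the first wild-type library was left out (adjusted p = 0.255).

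The remaining tested members stood under 1 CPM in every PF-382 library. SNORD89 had 21, 15 and 6 counts in KO, against 26 and 28 in WT, although the WT libraries were shallower. SNORD33 had 7, 15 and 4 counts in KO, against 19 and 20 in WT. For both, the 2 WT libraries were close in CPM (the first over the second was 0.891 for SNORD89 and 0.912 for SNORD33) and above all KO libraries. SNORD89 fell by 2.14 (SE 0.59, edgeR adjusted p = 0.0360) and SNORD33, a guide of the small-subunit ribosomal RNA, by 2.43 (SE 0.53, edgeR adjusted p = 0.0187). SNORD46, a guide of the large-subunit ribosomal RNA, fell by 2.12 (SE 0.47, edgeR adjusted p = 0.0189) and SNORD8 by 2.38 (SE 0.71, edgeR adjusted p = 0.0463). SNORD33, SNORD46 and SNORD8 met the filter only with a WT library counted, so a lower value in KO was favoured. SNORD8 changed by -1.21 when the first wild-type library was left out (adjusted p = 0.319). With 1 library left out, SNORD3C, SNORD8, SNORD89 and SNORD94 lost the call in 4 of 5 fits, SNORD15B and SNORD46 in 3 and SNORD33 in 1 (without KO replicate 1), with the sign kept in each. SNORD110, which met the filter through the WT libraries alone, changed by -2.35 (SE 0.85) and did not pass (edgeR adjusted p = 0.0783). Without KO replicate 1 it was called lower (log2 change -3.34, edgeR adjusted p = 0.0475). Of the 19 members, 13 had fractional counts and share reads with other genes. Among the 6 with whole counts (SNORD13, SNORD15B, SNORD17, SNORD46, SNORD89 and SNORD94), 5 were lower, against 14.6% of all genes. Of the same 6, 0 were higher, against 15.8% of all genes, a share at which 0 of 6 says little. At an unadjusted p under 0.05, 0 were higher by edgeR or DESeq2. The 5 include SNORD46, for which the filter favoured a lower value.

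The imprinted clusters were close to empty. The SNORD116 array, which lies in the Prader-Willi region and is transcribed from the paternal chromosome within SNHG14, had a count for 23 of its 30 members. Its summed counts were 35, 31 and 16 in KO, against 105 and 34 in WT, or 0.534, 0.331 and 0.202 CPM in KO, against 3.09 and 1.04 CPM in WT. Both WT libraries were above all KO libraries. In MOLT-14 the sum was 24 counts in STAG2, against 56 in EV. None of the 48 SNORD115 genes of the same locus, and none of the 40 SNORD112, SNORD113 and SNORD114 genes, had a count.

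Within the array, SNORD116-3 and SNORD116-9 had the same rounded counts, 4, 4 and 1 in KO and 7 and 5 in WT, and how reads were divided between these copies was not tested. SNORD116-8 had 2, 2 and 3 counts in KO and 9 and 2 in WT, and SNORD116-18 had 3, 3 and 3 in KO and 11 and 2 in WT. None of these 4 passed the filter on low counts. SNORD116-15, with 2, 1 and 1 counts in KO, against 9 and 7 in WT, passed it through the WT libraries alone and was called lower (log2 change -3.67, SE 0.67, edgeR adjusted p = 0.0111), a direction that the filter favoured. In MOLT-14 it had no count. Since reads can be shared between the copies, this is a value of 1 copy as the authors' counting assigned it.

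Of the 19 tested members, 14 lie within the annotated span of a gene on the same strand, taken as the host, each in a different host. Position alone does not show that a snoRNA is cut from that gene's transcript. SNORD118, inside an exon of TMEM107, is among the 14. The median log2 change of the hosts was 0.08, with 4 higher, 1 lower and 9 not called, against 30.4% of all genes called, while the median of the 14 members was -2.20. The log2 change of each of the 14 members was below that of its host, with a median difference of -2.28. The 7 members that met the filter only with a WT library counted are all among the 14. For those, a value below the host was favoured by the filter. With the first wild-type library left out, 12 of 13 members were below their host, SNORD22 being the exception, and the median difference was -1.31. For the 5 members that overlap no exon of the host it was -1.85. At the other 9, reads of the host exon may be counted with the snoRNA or the reverse.

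NOP56, a core protein of the C/D box particle and host of SNORD110, had 366, 363 and 355 CPM in KO, against 128 and 120 CPM in WT. It rose by 1.54 (SE 0.12, edgeR adjusted p = 0.00218), while SNORD110 was at -2.35. EIF4A1, a translation initiation helicase and host of SNORD10, had 816, 872 and 888 CPM in KO, against 390 and 380 CPM in WT. It rose by 1.16 (SE 0.13), while SNORD10 fell by 1.66. HSPA8 (host of SNORD14C) and EIF4G2 (host of SNORD97) rose by 1.14 and 0.74. SNORD110 and SNORD14C were among the members whose lower value the filter favoured, and neither passed the test. RPS3, a ribosomal protein gene and host of SNORD15B, was the host called lower, at -0.57 (SE 0.14, edgeR adjusted p = 0.0258).

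**Figure D4:**
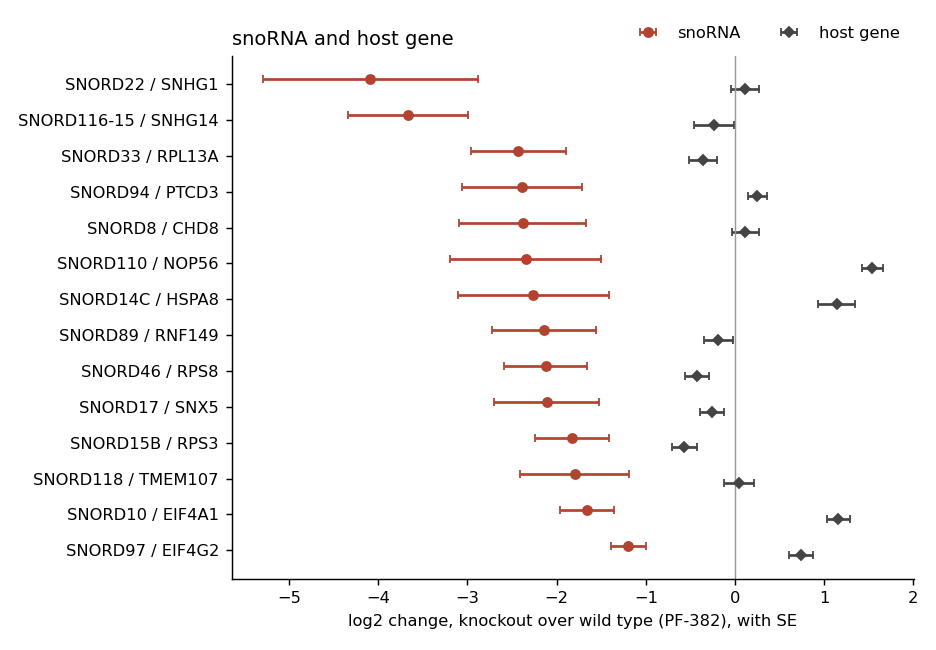
log2 change of 14 C/D box snoRNAs (circles) and of their host genes (diamonds) in PF-382, knockout over wild type, with standard errors. All 14 snoRNAs lie left of their hosts, and the hosts range from -0.57 to 1.54. For the 7 that met the filter only with a wild-type library counted, a lower value was favoured.

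The protein genes of the C/D box pathway were set beside the RNAs as a list of 20. The 5 core particle genes were all higher in KO, 5 of 8 assembly genes were higher, and 2 of 7 maturation and turnover genes were higher, against 15.8% of all genes, while 0 of the 20 were lower by edgeR or DESeq2 (1, ZNHIT3, at an unadjusted p under 0.05 by each). The median log2 change was 0.60, against -0.02 for all genes. In the core, FBL (fibrillarin, the methyltransferase) rose by 0.61, NOP56 by 1.54, NOP58 by 0.84 and SNU13, which binds the kink-turn of boxes C and D, by 0.46. RRP9, the protein particular to the U3 particle, had 41.4, 45.7 and 48.8 CPM in KO, against 16.2 and 10.8 CPM in WT. It rose by 1.75 (SE 0.20, edgeR adjusted p = 0.00373).

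Among assembly genes, the helicases RUVBL1 and RUVBL2 rose by 0.95 and 0.85, NUFIP1 by 0.68, RPAP3 by 0.61 and ZNHIT6 by 0.59. C12orf45 (0.46), PIH1D1 (0.20) and ZNHIT3 (-0.28) did not pass. NOLC1, a nucleolar and Cajal body chaperone, rose by 1.31 and TGS1, which trimethylates the cap of U3, by 0.73. The debranching enzyme DBR1 (0.36), the exonucleases XRN1 (-0.21), XRN2 (0.24) and EXOSC10 (0.40), and the deadenylase PARN (0.40) did not pass. In MOLT-14 the median log2 ratio of the 20 genes was 0.01, with a range of -0.63 to 0.34.

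In MOLT-14, 6 members reached 5 CPM in either library, and 3 of them were at least 2-fold higher in STAG2 and 0 at least 2-fold lower. With library totals alone 2 were, since the log2 ratio of SNORD10 was then 0.91. Over all genes at that level 0.944% were at least 2-fold higher and 0.988% at least 2-fold lower. SNORD3B-2 had 222 CPM in STAG2, against 80.7 CPM in EV (log2 ratio 1.46, 95% counting interval 1.40 to 1.52). SNORD3B-1 had 190 CPM in STAG2, against 80.5 CPM in EV (log2 ratio 1.24, 1.18 to 1.30). These 2 genes have the same U3 bases and are not independent members. SNORD10 had 36.6 CPM in STAG2, against 17.6 CPM in EV (log2 ratio 1.05, 0.93 to 1.18).

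The other 3 members fell short of 2-fold. SNORD17 had 53.8 CPM in STAG2, against 27.1 CPM in EV (log2 ratio 0.99, 0.89 to 1.09), SNORD3A had a log2 ratio of 0.44 (0.40 to 0.48) and SNORD13 one of 0.22 (-0.04 to 0.48). The interval of SNORD13 includes no difference. The higher small RNA share of the STAG2 library moved with these ratios, and its part in them was not tested.

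SNORD97 fell under the level of 5 CPM and was picked out after its values were seen, because it ran against the others. It had 34 counts and 0.794 CPM in MOLT-14 STAG2, against 169 counts and 4.16 CPM in MOLT-14 EV, a log2 ratio of -2.32 (95% counting interval -2.96 to -1.85). In PF-382 it was lower in KO. Its level also set the lines apart, with 13.4 to 15.6 CPM in KO and 26.0 and 40.5 CPM in WT.

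Among members with a count, longer ones tended to have higher levels. The 18 members of at least 120 bases, of which 12 were counted and 11 tested, held 99.8%, 99.8% and 99.9% of C/D box counts in KO, 99.8% and 99.6% in WT, 98.8% in MOLT-14 STAG2 and 97.7% in MOLT-14 EV. The 265 shorter members, 85 of them counted and 8 tested, held the rest. SNORD3A alone held 91.7% to 93.8% of C/D box counts in the PF-382 libraries, so the shares there are mostly those of a single gene. Of the 11 members of 190 to 237 bases, 5 were counted, and the class median in PF-382 was 0 CPM. Across the 97 members with a count, length and mean CPM in PF-382 had a Spearman correlation of 0.51, or 0.45 with CPM per 100 bases, as a description over genes of the same libraries. What RNA extraction and library preparation kept of RNAs of this size was not tested.

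**Figure D5:**
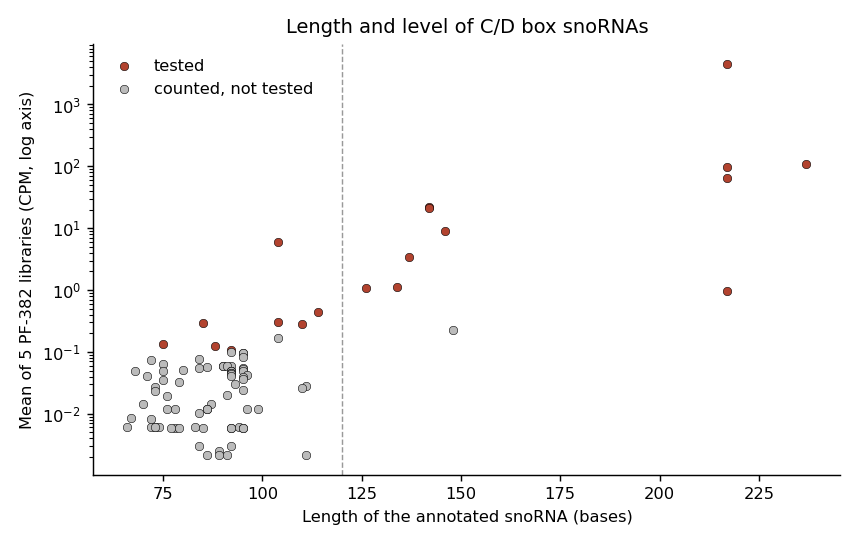
Length of the annotated snoRNA in bases against the mean of the 5 PF-382 libraries in CPM on a log axis, for members counted in PF-382. Members of at least 120 bases, right of the dashed line, hold nearly all counts, and 11 of the 19 tested members are among them.

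The deposited TPM values could not be used for these genes. Of the members with a count, the authors' TPM was 0 for 73.2%, 74.1% and 67.4% in KO, 74.4% and 76.7% in WT, 56.1% in MOLT-14 STAG2 and 69.6% in MOLT-14 EV. The longest member at 0 TPM had 110, 114 and 114 bases in KO, against 99 and 104 bases in WT. SNORD13, at 104 bases, was listed at 0 TPM in the 3 KO libraries, the second wild-type library and MOLT-14 STAG2, where it had 168 to 430 counts. It was listed at 3094 TPM in the first wild-type library and 3569 TPM in MOLT-14 EV, from 305 and 222 counts. On the TPM scale this RNA is listed above 0 in 2 of 7 libraries, while it had counts in all 7.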

How the data were processed

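Total RNA of 7 libraries was aligned and quantified by the authors with STAR and RSEM on GRCh38/hg38, per the submitters' processing notes; annotation release, versions and strand setting are not given in the sources used here. The deposited tables list expected counts per gene (estimated, not normalised, per the file headers), together with TPM and FPKM that the authors scaled by gene length and depth. Expected counts were rounded and used for all tests, the deposited TPM only to show where it is 0, and the deposited FPKM not at all. ERCC spike-ins were left out. All 283 SNORD identifiers matched GENCODE 29, which gave positions, lengths (the shortest transcript), hosts and sequences.

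The 5 PF-382 libraries were fitted with edgeR 4.0.16 in R 4.3.3 (TMM, filterByExpr, quasi-likelihood, two-sided), with Benjamini-Hochberg adjustment across the 17442 genes that passed the filter. Standard errors come from the log2 change and the F statistic. Levels are CPM on TMM-scaled totals. The MOLT-14 libraries were set against each other as log2 ratios of CPM with a prior count of 2, at a level of at least 5 CPM in either library, with exact binomial 95% intervals. DESeq2 1.42.0, other scalings and filters, and leaving out each library were alternatives. Named members were the processing snoRNAs, the 10 most counted, the largest called changes, the 5 most counted of the imprinted clusters, the MOLT-14 members at 5 CPM and the 20 protein genes. Members and lists were chosen with earlier results of these data known.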

Additional observations from a re-analysis of the deposited data

How the results depend on the processing

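The PF-382 calls (2 higher, 12 lower, median log2 -2.11) changed with some settings, and where no value shows it the cause was not tested. With the sum of C/D box counts as library size, 0 members were higher and 1 lower (SNORD22), with 1 and 5 at an unadjusted p under 0.05 by edgeR, and the median was -1.02; over all genes 4.23% were then called, 438 higher and 299 lower. Under upper-quartile scaling 1 was higher. That scaling moved the median of all genes to -0.18 and TMM on protein-coding genes moved it to -0.11; the calls over all genes were then 1824 higher and 3566 lower, and 2146 higher and 3078 lower, against 2763 higher and 2548 lower. With at least 1 CPM in 2 libraries 9 members were tested, 2 were higher and 6 lower (median -1.28), with 33.9% of all genes called. Of the 6 members with whole counts, 0 were higher and 5 lower in the main fit, where 30.4% of all genes were called. Leaving out 1 library gave 1 to 2 higher, 4 to 16 lower and medians from -2.38 to -0.85. SNORD22 ranged from -5.04 to 0.62 and SNORD3A from -1.45 to 0.0141 when 1 library was left out, both positive without the first wild-type library. DESeq2 called 2 higher and 14 lower of 19, with 35.5% of all genes called. The C/D box share difference (-0.336 percentage points) ranged from -0.680 to 0.00776 when 1 library was left out. It was 0.00874 for SNORD3B-1 and SNORD3B-2 alone, a choice made after seeing the data. The 20 protein genes gave 7 to 16 higher and 0 to 1 lower when 1 library was left out. Under upper-quartile scaling, TMM on protein-coding genes and the 1 CPM filter 1 was lower, ZNHIT3. In MOLT-14, C/D box counts as library size gave 0 at least 2-fold higher and 1 lower of 8, and a minimum of 1 CPM gave 1 lower, SNORD97. No paired analysis was possible because the codes of the PF-382 libraries are not shared between KO and WT. Without the first wild-type library, a choice made after seeing the data, the median of member minus host was -1.31. Depth limits members of a few counts, where 1 read moves a value.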
